A study of Mus musculus with 9 samples.

Results

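CpG methylation was described at 48 genes that encode transcription factors of embryonic patterning, most of them known as Polycomb targets, in the B cell lineage of the mouse spleen. The genes were listed by name, and every CpG whose nearest gene in the deposited annotation was a listed gene, and which was read at least 10 times in each of the 9 libraries, was used. This gave 2874 CpGs of the 7378 deposited for these genes, out of 356320 CpGs that met the same coverage in the whole series. All 48 genes had at least 3 such CpGs, with a median of 49.5 and a range from 3 at Gata6 to 205 at Pax2. The rule used names and coverage only, though the names were listed with earlier results of these data known.

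The libraries were made by reduced representation bisulfite sequencing, in which DNA is cut with MspI at CCGG and unmethylated cytosines are converted, so that each read scores a CpG as methylated or not. The spleens were from C57Bl/6J females, 10 weeks old. Control mice without an agent gave the naive B cells, sorted as B220+ CD43-. Mice given LPS, a bacterial lipopolysaccharide, gave both other groups on day 3: plasmablasts were sorted as CD138+ with middle B220 (B220mid) and plasma cells as CD138+ with low B220 (B220low). Each group had 3 libraries, and wherever 3 values of a group follow each other they are replicates 1, 2 and 3 in that order. Near its start site the B cell gene Cd79b was at 2.37% in naive B cells, against 12.2% and 21.5% at the T cell genes Lck and Thy1, 51.7% and 37.6% at the myeloid genes Cebpe and Mpo and 62.8% at the erythroid gene Epor. RNA and histone marks are not analysed here, so whether Polycomb occupied these genes in these cells was not measured.

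Polycomb repressive complexes keep developmental genes silent in cells of other lineages. Complex 2 places methyl groups on lysine 27 of histone H3, complex 1 binds that mark and ubiquitinates histone H2A, and their targets typically sit in long CpG islands whose DNA stays unmethylated although the gene is off. The genes described here include paired box factors (Pax), Lhx and sine oculis (Six3 and Six2) homeobox factors of eye, kidney and brain, Iroquois factors (Irx), T-box factors of limb and heart (Tbx), forkhead pioneer factors of endoderm (Foxa), and Sox and Gata factors of stem cells, nerve and heart. Pax5, which does specify B cells, is a relative of the listed Pax genes and was not among the 48.

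The sequence before the start site carries many CpGs at most of these genes. RefSeq (GRCm38.p6) held a promoter window for 30 of the 48, with 40 windows in all because some genes have several starts. In the 250 bases before the start these windows held a median of 16.5 CpGs (range 4 to 29), against a median of 6 over all 32851 windows. The ratio of observed to expected CpGs was at least 0.6 in 75% of them and in 34.0% of all windows. An MspI site, CCGG on either strand, was present in 75% of them and in 47.1% of all windows of that length. Among the 18 genes with a single window and a tested level near the start, the number of CpGs in the window and the level within 1 kb in naive B cells had a Spearman rho of -0.50 and a Pearson r of -0.54, given as a description across genes that share the same libraries.

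The 5 windows printed here show most of that range, with each CpG in capitals and the start site following the last base. Foxc1, Gbx2 and Irx4 have dense CpGs, while Pax8 and Tbx4 have few. They lie on build GRCm38.p6 at chr13:31806396-31806645 on the plus strand (Foxc1), chr1:89931177-89931426 on the minus strand (Gbx2), chr13:73260247-73260496 on the plus strand (Irx4), chr2:24475600-24475849 on the minus strand (Pax8) and chr11:85896515-85896764 on the plus strand (Tbx4).
Foxc1: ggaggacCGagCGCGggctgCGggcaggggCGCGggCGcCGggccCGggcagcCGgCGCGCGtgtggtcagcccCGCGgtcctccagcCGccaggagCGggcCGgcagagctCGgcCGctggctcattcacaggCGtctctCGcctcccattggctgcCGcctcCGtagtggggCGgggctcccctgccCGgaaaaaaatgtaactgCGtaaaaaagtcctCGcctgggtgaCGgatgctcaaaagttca
Gbx2: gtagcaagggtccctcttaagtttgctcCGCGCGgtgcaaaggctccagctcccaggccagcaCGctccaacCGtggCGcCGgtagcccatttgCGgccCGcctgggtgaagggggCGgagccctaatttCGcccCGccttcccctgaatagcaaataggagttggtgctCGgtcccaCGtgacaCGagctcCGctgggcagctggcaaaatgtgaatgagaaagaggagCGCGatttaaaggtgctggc
Irx4: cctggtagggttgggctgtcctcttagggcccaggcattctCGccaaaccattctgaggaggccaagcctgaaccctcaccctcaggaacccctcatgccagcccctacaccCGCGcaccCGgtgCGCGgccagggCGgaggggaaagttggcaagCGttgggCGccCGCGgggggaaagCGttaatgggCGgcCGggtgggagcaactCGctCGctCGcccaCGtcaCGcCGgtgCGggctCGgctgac
Pax8: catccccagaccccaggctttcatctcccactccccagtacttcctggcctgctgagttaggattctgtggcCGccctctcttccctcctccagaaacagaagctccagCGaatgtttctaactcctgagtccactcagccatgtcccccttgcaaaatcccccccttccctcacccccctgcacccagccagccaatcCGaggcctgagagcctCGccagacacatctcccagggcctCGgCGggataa
Tbx4: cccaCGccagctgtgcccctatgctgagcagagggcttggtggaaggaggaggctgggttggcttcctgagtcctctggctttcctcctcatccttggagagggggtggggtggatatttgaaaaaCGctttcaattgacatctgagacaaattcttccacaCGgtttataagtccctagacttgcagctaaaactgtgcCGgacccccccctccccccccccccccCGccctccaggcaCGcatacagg
Foxc1 had 29 CpGs in its window, Irx4 had 22 and Gbx2 had 18, while Pax8 and Tbx4 had 6 each. The level within 1 kb of the start in naive B cells was 2.74% at Foxc1, 13.0% at Gbx2, 17.5% at Irx4, 19.4% at Tbx4 and 21.2% at Pax8. Lhx9, whose window was not printed and held the fewest CpGs (4), was at 9.97%. The deposited positions are on build mm9 and were not transferred to these windows.

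The 48 genes lay in wide valleys of low methylation. In naive B cells their CpGs within 1 kb of a start averaged 7.05% ± 1.86 (SD, n = 3 libraries), against 15.0% ± 1.55 at all other genes. Between 1 and 5 kb the average was 11.7% ± 1.77, against 63.2% ± 1.28 at other genes. Between 5 and 20 kb it was 24.4% ± 1.87 against 80.3% at other genes, and beyond 20 kb it was 69.2% ± 1.17 against 85.0%. The 48 genes therefore stayed low over a distance at which other genes were mostly methylated.

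**Figure D1:**
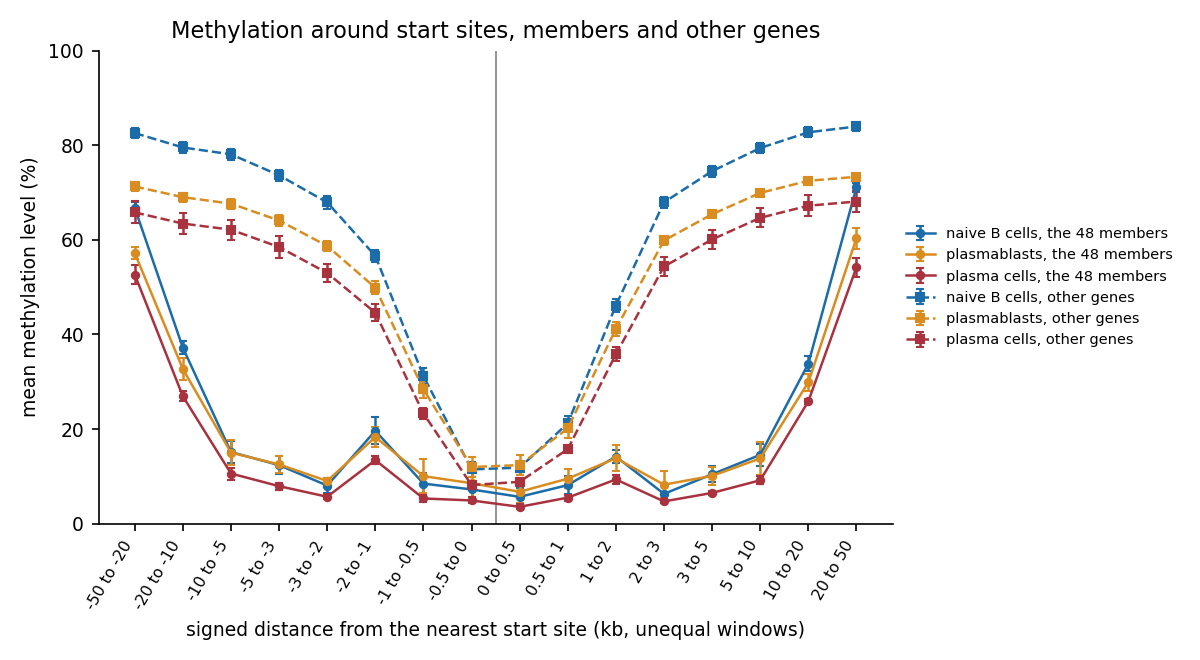
Mean methylation level (%) of CpGs in windows of signed distance from the nearest start site (kb, unequal windows), for the 48 genes (solid lines) and all other genes (dashed lines) in naive B cells, plasmablasts and plasma cells; points are means and bars the SD over 3 libraries. Between 2 and 3 kb downstream naive B cells stood at 6.29% at the 48 genes and 67.9% at other genes, and the 48 genes rose to 71.1% only in the window from 20 to 50 kb downstream.

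The valley was wide on both sides of the start. Upstream, from 10 to 5 kb before the start, the 48 genes averaged 15.1% in naive cells and other genes 78.1%. Downstream, from 5 to 10 kb, the values were 14.5% and 79.4%. A local shoulder was present from 2 to 1 kb upstream, where the 48 genes reached 19.6% in naive B cells, and from 1 to 2 kb downstream, where they reached 14.2%.

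The distance from the start to the nearest CpG at 50% or more in naive B cells gives the same picture gene by gene. For the 35 of 42 genes with a tested CpG within 1 kb that had such a CpG at all, the median distance was 11020 bp. Among other genes it was 2004.5 bp. A CpG at 50% or more lay within 1 kb at only 2 of the 42 genes, Pax8 at 532 bp and Gbx2 at 981 bp, compared with 32.8% of other genes. It lay beyond 5 kb at 64.3% of the 42 and at 28.2% of other genes. At Irx2 the nearest one was 43480 bp away and at Sox17 37006 bp away. Neither gene had a tested CpG between 5 and 20 kb, so levels over that stretch were not measured. Dlx1, Dlx5, Dlx6, Gata6, Lhx1, Lhx9 and Sox9 had no CpG at 50% or more among their tested CpGs. Of these only Lhx1 had tested CpGs beyond 5 kb, and none had any beyond 20 kb, so levels farther out were not measured.

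The annotation class gave a like order. Exonic CpGs of the 48 genes averaged 8.88% ± 1.78 in naive B cells against 51.6% ± 1.19 at other genes. Intronic CpGs averaged 35.8% ± 1.61 against 69.1% ± 1.19, and intergenic CpGs 47.2% ± 1.47 against 78.9% ± 1.14. The class the authors call promoter averaged 10.7% ± 1.77 against 22.2% ± 1.54.

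The libraries differed in their background, and this touches every low level given here. At 77425 CpGs of other genes with a mean level under 5%, naive B cells 1 stood at 0.738% and naive B cells 2 and 3 at 3.13% and 2.62%. Plasmablast libraries 1 to 3 stood at 2.69%, 6.10% and 2.08%, and plasma cell libraries 1 to 3 at 1.12%, 1.16% and 1.06%. Within 1 kb of the start the level of the 48 genes was 4.91%, 8.01% and 8.24% for naive B cells, 7.17%, 11.2% and 6.60% for plasmablasts, and 5.24%, 4.39% and 4.22% for plasma cells. Naive B cells 1 thus lay among the plasma cells and plasmablasts 2 above all others. With each library's background subtracted, the difference of the means within 1 kb went from 1.26 to -0.13 points for plasmablasts minus naive B cells. It went from -2.44 to -1.46 points for plasma cells minus naive B cells and from -3.70 to -1.33 points for plasma cells minus plasmablasts.

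**Figure D2:**
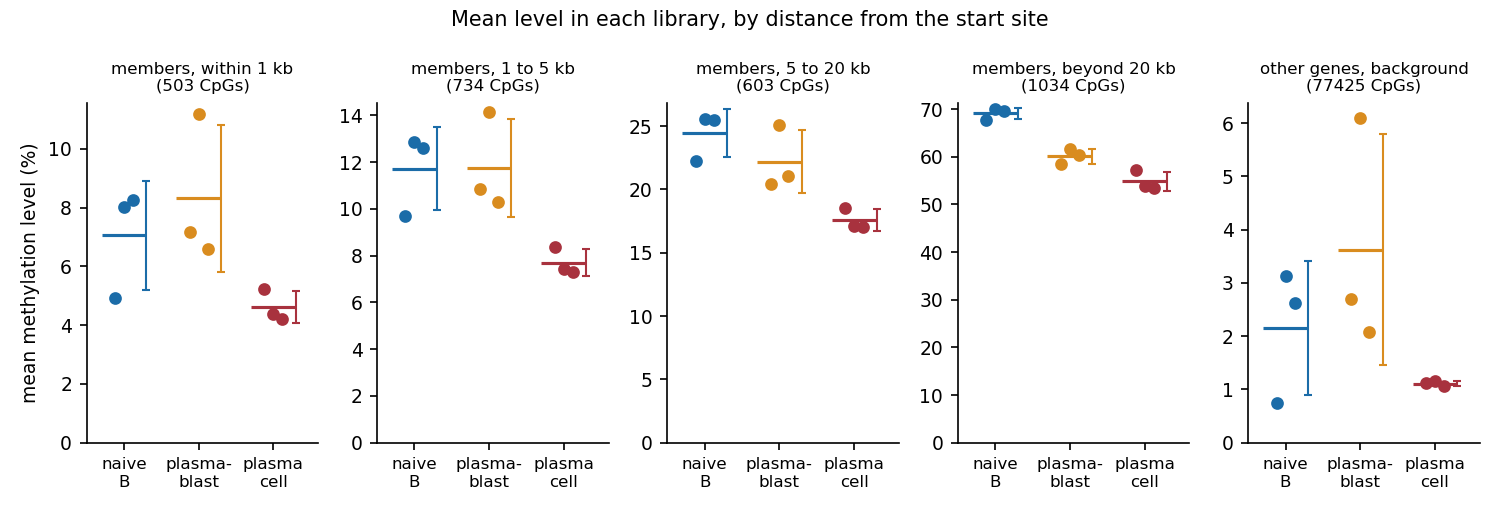
Mean methylation level (%) of the CpGs of the 48 genes in each library, by distance from the start, and at the right the background at 77425 low CpGs of other genes; points are libraries, lines are group means and bars the SD over 3 libraries. Plasmablasts 2 is the highest library within 1 kb (11.2%) and in the background (6.10%), while beyond 20 kb the 3 groups do not overlap.

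Beyond 20 kb the groups did not follow the order of the background. Levels there were 67.8%, 70.0% and 69.6% for naive B cells, 58.5%, 61.6% and 60.4% for plasmablasts, and 57.2%, 53.8% and 53.5% for plasma cells. The groups did not overlap. The difference of the means from naive B cells was -9.01 points in plasmablasts and -14.3 points in plasma cells. Other genes fell over the same distance from 85.0% to 73.6% and 68.3%. Between 5 and 20 kb the 48 genes stood at 24.4%, 22.2% and 17.6% in the 3 groups, and plasmablasts and naive B cells overlapped. Within 1 kb plasma cells differed by -0.297 points from naive B cells 1 alone, the naive library whose background was under 1.5% like theirs.

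Single CpGs were tested across the whole table with a logistic model of the reads, and a CpG was called lower or higher at an adjusted p under 0.01 (Benjamini-Hochberg over all CpGs) with a difference of at least 20 points. Tested differences are of reads pooled over the libraries of a group and can depart a little from the difference of the mean levels. In plasma cells against naive B cells 372 of the 2874 CpGs were lower, in 40 of the 48 genes, a share of 12.9% where 22.9% of all CpGs were lower. None was higher, where 0.0466% of all CpGs were. In plasmablasts against naive B cells 156 were lower in 35 genes (5.43%, where 10.8% of all CpGs were lower) and 1 was higher (where 0.0752% of all CpGs were). Both comparisons share the naive B cell libraries. Between plasma cells and plasmablasts 12 were lower (0.418%), where 0.671% of all CpGs were lower. Without plasmablasts 2 this last count was 0 (0.103% of all CpGs), and without naive B cells 3 it was 25 (0.861% of all CpGs).

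The calls rose with distance from the start. In plasma cells, 4 of 503 CpGs within 1 kb were lower (5.05% of all CpGs there), 19 of 734 between 1 and 5 kb (23.3% of all), 65 of 603 between 5 and 20 kb (28.7% of all) and 284 of 1034 beyond 20 kb (32.1% of all). As shares of the 48 genes' CpGs these are 0.795%, 2.59%, 10.8% and 27.5%. In plasmablasts the counts were 1, 2, 31 and 122, where 1.9%, 10.6%, 13.6% and 15.6% of all CpGs in those distances were lower. Tbx4 had the highest share of lower CpGs in plasma cells, 20 of 49, followed by Sox1 with 16 of 41 and Irx1 with 20 of 56. Dlx1, Dlx5, Dlx6, En2, Gata6, Lhx9, Sox9 and Wt1 had none, and 6 of these 8 had no CpG at 80% or more in naive cells and none beyond 20 kb.

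Most CpGs of the 48 genes started too low to fall by 20 points: 60.7% were under 20% in naive cells and 25.4% were at 80% or more. The shares called lower were therefore also taken among CpGs of a like starting level, where those of the 48 genes were smaller than, near to or larger than those of other genes, depending on the level and the distance. Among CpGs at 80 to 95% in naive B cells, 49.6% of 337 at the 48 genes and 49.4% of 56492 at other genes were lower in plasma cells. Among those at 95% or more the shares were 28.7% and 25.5%, and among those at 50 to 80% they were 42.4% and 44.0%. Among those at 20 to 50% they were 9.40% of 234 and 15.3%. In plasmablasts the shares at 80 to 95% were 26.4% and 26.1%, those at 50 to 80% were 10.9% and 16.9%, and those at 20 to 50% were 0.855% and 3.90%. Between 5 and 20 kb alone, 27 of 45 CpGs at 80 to 95% were lower in plasma cells at the 48 genes. At 95% or more 16 of 39 were lower there. At other genes the shares in these classes were 48.9% and 24.6%. Beyond 20 kb the shares at 80 to 95% were 49.1% at the 48 genes and 49.97% at other genes. At 95% or more they were 27.2% and 26.7%. These shares were not tested against each other, and CpGs of 1 gene are not independent.

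**Figure D3:**
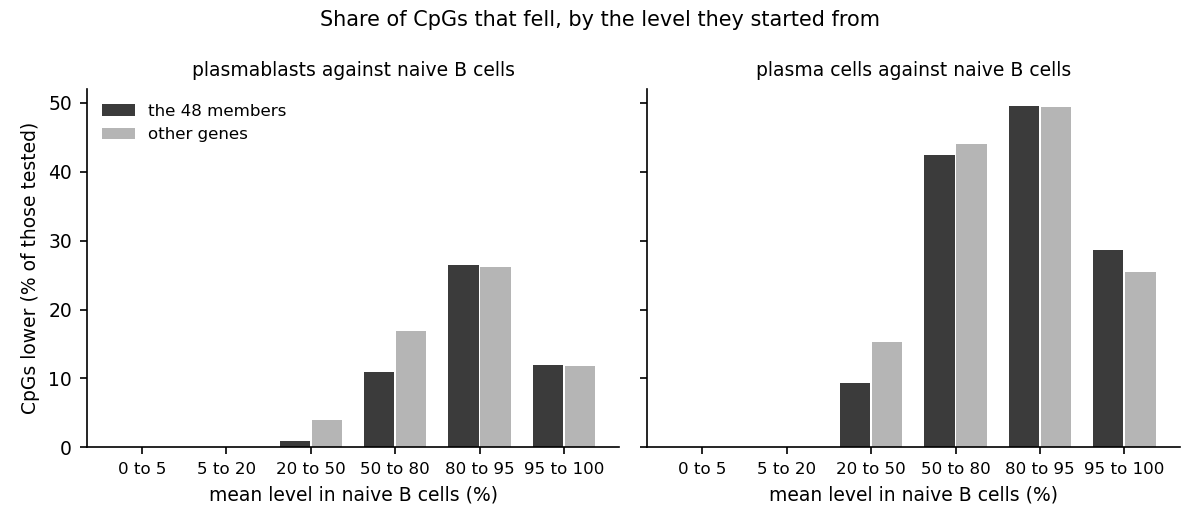
Share of CpGs called lower (% of those tested) in plasmablasts (left) and plasma cells (right) against naive B cells, by the mean level in naive B cells, for the 48 genes (dark bars) and other genes (light bars). No CpG of the 48 genes under 20% was lower, and at 80 to 95% the bars for plasma cells stand at 49.6% and 49.4%.

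Near the start only a handful of CpGs were called. At Pax8, a thyroid and kidney factor, the intronic CpG 532 bp after the start (mm9 chr2:24330553) was at 66.7%, 65.7% and 93.8% for naive B cells, 33.3%, 38.7% and 24.0% for plasmablasts and 31.6%, 45.0% and 30.2% for plasma cells. Neither later group overlapped the naive cells, and the CpG was lower in plasmablasts (adjusted p = 9.59e-05) and in plasma cells (by -37.91 points, adjusted p = 4.86e-05) at 16 to 53 reads a library. It was the only one of the 48 genes' CpGs within 1 kb that was called in plasmablasts as lower.

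Irx4, an Iroquois factor of the heart ventricle, held a pair of lower CpGs 324 and 322 bp before its start (mm9 chr13:73397620 and chr13:73397622). The first was at 48.1%, 36.4% and 25% for naive B cells and at 15.4%, 11.1% and 5.71% for plasma cells, without overlap (-29.22 points, adjusted p = 0.000855). The second went from 29.6%, 22.7% and 25% to 0%, 0% and 8.57% (-22.43 points, adjusted p = 0.00136). They lie 2 bp apart and had equal read numbers in every library, so they are not separate observations. Tbx1, a T-box factor of the pharyngeal arches, had a lower intronic CpG 812 bp after its start (mm9 chr16:18586249), at 35.1%, 40.4% and 39.0% for naive B cells and 20.0%, 17.4% and 15.1% for plasma cells (adjusted p = 0.00139).

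The single CpG called higher lay in an exon of Gbx2, a homeobox factor of the hindbrain boundary, 24 bp after the start (mm9 chr1:91827726). It was at 7.14%, 9.52% and 15.8% for naive B cells, 33.3%, 29.6% and 28.1% for plasmablasts and 10.9%, 16.7% and 4.11% for plasma cells. All plasmablast libraries lay above all others (adjusted p = 0.00420 against naive B cells, 19 to 73 reads). The library background was 3.62% ± 2.17 in plasmablasts and 2.16% ± 1.26 in naive B cells (SD, n = 3), and after it was subtracted no CpG was called higher. Without plasmablasts 2 none was called either.

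Farther out the falls were deeper. The largest was an intergenic CpG 5834 bp downstream of the Tbx1 start (mm9 chr16:18581227). It was at 88.9%, 83.3% and 85.2% for naive B cells, 43.5%, 57.7% and 35.3% for plasmablasts and 30.4%, 18.2% and 10.7% for plasma cells, with no overlap between any of the groups (-66.01 points in plasma cells, adjusted p = 6.66e-11). Next came CpGs assigned to En1, a midbrain and limb factor, at 84002 bp (mm9 chr1:122583067, 85.6% in naive cells and 24.7% in plasma cells), and to Irx1 at 109762 bp (mm9 chr13:71991408, 98.4% and 35.2%). A CpG 16627 bp upstream of Foxc1 (mm9 chr13:31881887) had the deepest coverage of these, 36 to 104 reads. It read 75%, 77.8% and 83.3% for naive B cells, 40.9%, 31.7% and 32.7% for plasmablasts and 28.1%, 28.9% and 22.1% for plasma cells, so that most of its fall was already present in plasmablasts. At Tbx4 a CpG 46549 bp downstream (mm9 chr11:85756817) went from 96.7% to 56.1% and 47.2%. CpGs at such distances are assigned by nearest start and may belong to other elements.

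Of the 2874 CpGs, 12 (0.418%) were lower in plasma cells than in plasmablasts, a smaller share than the 0.671% of all CpGs. With the background subtracted 3 were lower (0.25% of all CpGs). Without the plasmablast library of the highest background 0 were lower (0.103% of all CpGs). The sites named here therefore depended on that library. At Gata4, a heart and endoderm factor, an intronic CpG 1315 bp after the start (mm9 chr14:63862781) was at 35.5%, 54.5% and 62.5% for naive B cells, 29.2%, 53.3% and 36.4% for plasmablasts and 5.00%, 10.5% and 4.0% for plasma cells. The earlier stages overlapped and the plasma cells lay apart (-34.54 points against plasmablasts, adjusted p = 0.00231). The rest lay at Tbx3 and another Gata4 site, and at Lhx9, Six2, Dlx2, Gbx2, Irx1, Pax2, Foxd3 and Six3, and were named after their values were seen.

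Reads were also summed per gene over each distance class where at least 5 CpGs were tested, and a gene was called at an adjusted p under 0.01 over all genes and a difference of at least 5 points. Within 1 kb of the start 35 of the 48 genes could be tested. None was lower in plasmablasts (0.717% of all 7117 genes were), in plasma cells against naive B cells (10.3% of all genes) or in plasma cells against plasmablasts (0.562% of all genes). At an unadjusted p under 0.05 the numbers of lower genes were 0, 6 and 19, or 0%, 17.1% and 54.3% of the 35, where 6.38%, 30.1% and 58.8% of all genes were. Without naive B cells 1, 3 of them were lower in plasma cells than in naive cells (19.1% of all genes) and 5 lower than in plasmablasts (13.4% of all genes). Without plasmablasts 1 the latter count was 2 (3.09% of all genes).

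The median difference near the start was 1.53 points in plasmablasts (1.58 over all genes) and -2.59 points in plasma cells (-1.70 over all genes). Pax8 had the highest level in naive B cells, with 21.2%, 23.3% and 19.1%, and was at 15.3%, 19.6% and 15.0% for plasmablasts. In plasma cells it stood at 12.2%, 11.9% and 10.5%, below all naive libraries (adjusted p = 0.0309, which missed the threshold). Irx4 stood at 14.7%, 19.7% and 17.9% for naive B cells and 9.24%, 7.79% and 4.62% for plasma cells, again without overlap (adjusted p = 0.0654). In limma on unweighted means of CpG levels, which changes both the weighting and the model, Pax8 and Irx4 passed with adjusted p of 0.00116 and 0.00102.

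At Tbx4, a hindlimb factor, the 5 CpGs stood at 19.4% ± 3.07 in naive cells and 13.3% ± 1.60 in plasma cells (n = 3 each, adjusted p = 0.266 in the logistic model). Foxa2, which opens chromatin in endoderm, was at 11.8%, 18.9% and 16.7% for naive B cells and 13.9%, 10.2% and 6.59% for plasma cells, and these overlapped. At the lower end stood Tbx2, at 2.05% ± 0.449 in naive cells and 1.90% ± 0.605 in plasma cells, and Pax2, a kidney and optic stalk factor, at 2.35% ± 1.04 and 2.29% ± 0.976. Of the eye factors, Pax6 was at 5.97% ± 2.49, 7.95% ± 1.76 and 2.70% ± 0.162 in naive B cells, plasmablasts and plasma cells, and Six3 at 13.4% ± 2.82, 14.1% ± 1.67 and 8.04% ± 3.90. Tbx3 was at 4.25% ± 1.72 in naive cells and 1.45% ± 0.364 in plasma cells, the kidney and gonad factor Wt1 at 10.0% ± 2.11 and 6.97% ± 1.2, and the forebrain factor Otx2 at 8.2% ± 3.61 and 4.83% ± 1.48. None of these passed the test.

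Between 1 and 5 kb from the start, 41 genes could be tested. None was lower in plasmablasts, where 37.7% of all 3506 genes were, and 10 were lower in plasma cells, where 68.3% of all genes were. They were Tbx4, Gbx2, Irx3, Tbx1, Tbx3, Gata4, Pax2, Six2, Pitx1 and Foxa1. None was lower in plasma cells than in plasmablasts (0.685% of all genes). The median difference in plasma cells was -3.53 points against -13.40 over all genes. Of the whole set only Tbx4 and Gbx2 had naive levels above 70% at this distance.

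At Tbx4 the level 1 to 5 kb away was 61.0%, 76.3% and 75.9% for naive B cells, 62.2%, 67.1% and 65.6% for plasmablasts and 60.4%, 51.8% and 52.2% for plasma cells (-17.55 points, adjusted p = 0.00196). Plasma cells did not overlap the naive cells, but plasma cells 1 lay within 1 point of naive B cells 1. Gbx2 was at 76.7%, 85.4% and 88.8% for naive B cells and 75.3%, 65.0% and 62.4% for plasma cells (-14.49 points, adjusted p = 0.00557). Irx3 was at 24.5% ± 2.41 and 14.8% ± 2.65 in the same groups, and Tbx1 at 29.2% ± 2.03 and 20.5% ± 4.22. The limb and breast factor Tbx3 was at 16.4% ± 4.79 and 6.92% ± 0.426, Gata4 at 21.2% ± 4.05 and 13.2% ± 2.84, and Pax2 at 12.8% ± 3.12 and 5.66% ± 1.09. These 10 calls depended on single libraries: 0 were made without naive B cells 2, 1 without naive B cells 3, 2 without plasma cells 3 and 3 without plasma cells 2, where 54.8% to 60.6% of all genes were still called. With the library background subtracted 6 were made (67.1% of all genes), and with the set of high or low background as a term in the model 0 (47.5% of all genes). At 7 of the 10 genes both naive B cells 2 and 3, which had the higher background, lay above naive B cells 1. The mean over other genes at this distance had the same order, with 61.7%, 64.1% and 63.8%. Whether the background accounts for the lost calls was not tested.

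Beyond 5 kb from the start 40 genes could be tested, and here the falls were broad. In plasma cells 32 were lower than in naive B cells, 80% of those tested, where 91.6% of all 9210 genes were lower. Leaving out each library in turn gave 29 to 36. In plasmablasts 10 were lower (En1, Foxc1, Hand1, Irx1, Irx2, Irx4, Otx2, Pitx1, Sox1 and Tbx4), where 70.5% of all genes were. The median difference was -15.37 points in plasma cells (-17.25 over all genes) and -7.27 points in plasmablasts (-10.88 over all genes).

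**Figure D4:**
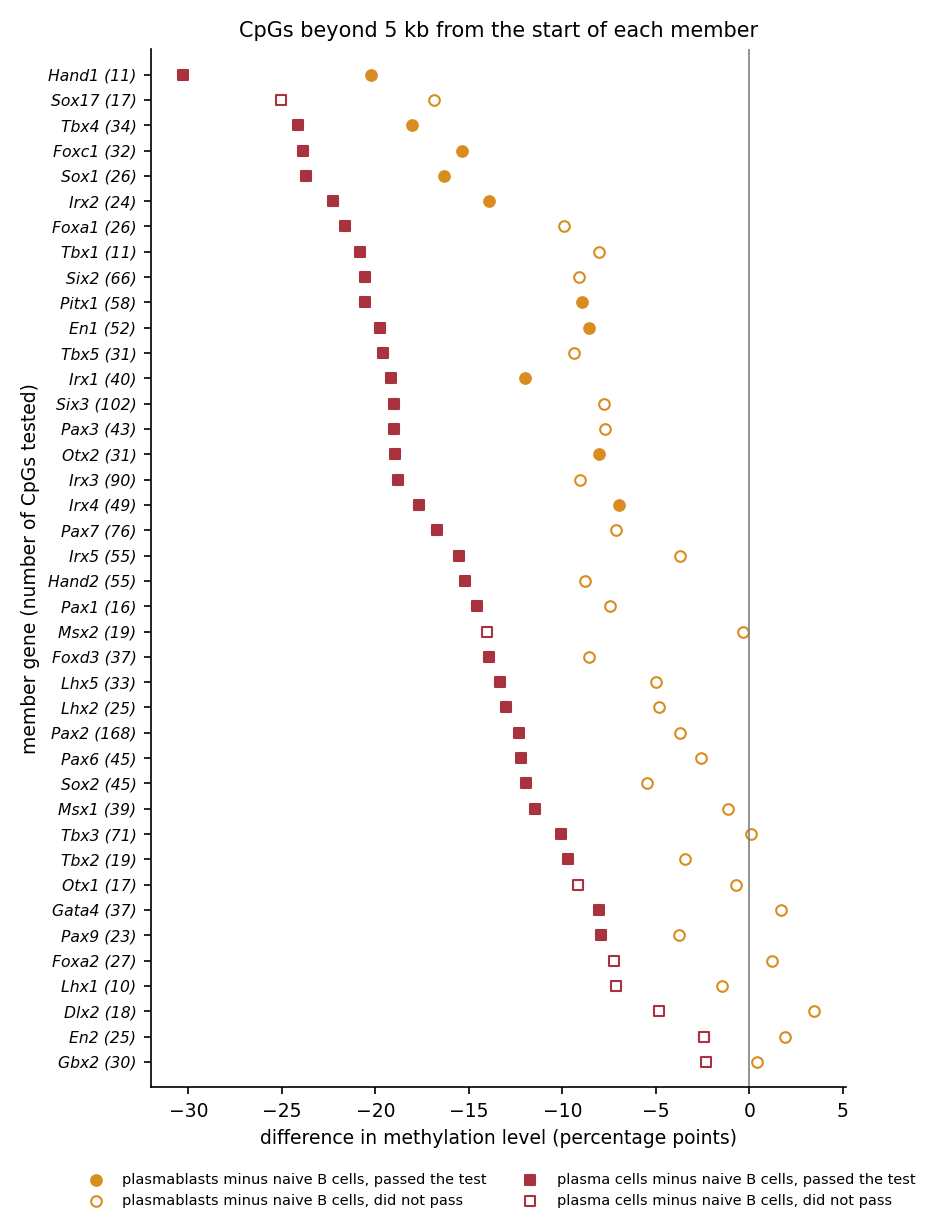
Difference in methylation level (percentage points) of CpGs beyond 5 kb from the start for each of the 40 genes tested, with the number of CpGs in brackets; circles are plasmablasts and squares plasma cells, each minus naive B cells, and filled symbols passed the test. Hand1 had the largest fall in plasma cells, with a difference of -30.32 points, and Gbx2 had the smallest, -2.30 points.

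Hand1, a factor of trophoblast and heart, was at 82.6%, 84.4% and 86.7% for naive B cells, 61.7%, 65.1% and 66.3% for plasmablasts and 60%, 53.4% and 49.4% for plasma cells. The 3 groups did not overlap, with differences of -20.23 points in plasmablasts (adjusted p = 8.92e-05) and -30.32 points in plasma cells (adjusted p = 2.93e-06). Tbx4 was at 93.7%, 94.1% and 91.6% for naive B cells, 74.0%, 75.2% and 76.2% for plasmablasts and 73.0%, 65.9% and 66.9% for plasma cells, again without overlap (differences of -18.03 and -24.14 points). Foxc1, a factor of mesoderm and eye, went from 92.5% ± 1.09 to 77.1% ± 1.34 and 68.5% ± 3.47, differences of -15.39 and -23.89 points with adjusted p of 1.30e-05 and 4.75e-07. All plasmablast libraries of these genes lay between the naive B cells and the plasma cells.

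Sox1, a neural stem cell factor, went from 87.5% ± 0.657 in naive B cells to 70.8% ± 5.33 in plasmablasts and 63.4% ± 4.39 in plasma cells (differences of -16.31 and -23.72 points). Irx2 went from 86.1% ± 1.77 to 72.0% ± 2.65 and 63.3% ± 5.18. Foxa1, a pioneer factor of endoderm and breast, was at 60.7%, 57.3% and 56.1% for naive B cells, 51.2%, 48.6% and 45.3% for plasmablasts and 46.4%, 33.1% and 32.0% for plasma cells. Its plasma cells were lower (-21.64 points, adjusted p = 6.14e-05), while in plasmablasts the difference of -9.88 points missed the threshold (adjusted p = 0.0230). It passed at a coverage minimum of 20 reads, in limma on unweighted means and without plasma cells 1 (adjusted p of 0.00137, 0.00204 and 0.000772). Plasma cells 1 lay above the other plasma cell libraries at Foxa1, Hand1 and Tbx4. It also did so over all tested CpGs of the series, with 51.8% against 49.1% and 48.5%.

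Pax6, the master regulator of the eye, was at 49.8%, 45.9% and 45.3% for naive B cells, 43.2%, 44.2% and 46.3% for plasmablasts and 38.5%, 31.3% and 33.9% for plasma cells (-12.24 points in plasma cells, adjusted p = 6.90e-05). Its naive B cells and plasmablasts overlapped. Six3, with 102 CpGs, went from 52.7% ± 3.35 to 33.5% ± 5.83 in plasma cells (-19.00 points), and Pax2, with 168 CpGs, from 34.1% ± 0.782 to 21.8% ± 4.24 (-12.34 points). Otx2 went from 74.1% ± 1.76 to 66.0% ± 4.12 in plasmablasts and 55.0% ± 4.19 in plasma cells, but its plasmablast call was lost when naive B cells 2 or 3, or plasmablasts 1 or 3, were left out (adjusted p of 0.0323, 0.0160, 0.0400 and 0.0146), and at coverage minima of 5 and 20 reads (0.0371 and 0.0612). The pluripotency factor Sox2, with tested CpGs only beyond 1 kb, was at 54.0% ± 2.95 in naive cells and 41.7% ± 3.82 in plasma cells (-11.93 points, adjusted p = 0.000212).

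Tbx3 was at 18.2%, 28.2% and 25.3% for naive B cells, 20.3%, 28.0% and 21.7% for plasmablasts and 15.6%, 12.6% and 12.4% for plasma cells (-10.05 points in plasma cells, adjusted p = 0.000896). Its naive B cells and plasmablasts overlapped, and its call in plasma cells was lost with the background set as a term (adjusted p = 0.0245). Gata4 was at 31.7% ± 4.92, 32.8% ± 3.48 and 23.1% ± 1.94 in the 3 groups (-8.03 points in plasma cells, adjusted p = 0.00550). Its call was lost without naive B cells 2 or 3 or plasma cells 2 or 3, with adjusted p from 0.0149 to 0.0318, at coverage minima of 5 and 20 reads (0.0176 and 0.0121) and with the background set as a term (0.180). Foxa2 was at 55.3%, 44.2% and 43.3% for naive B cells and 49.8%, 37.6% and 36.2% for plasma cells, and these overlapped (adjusted p = 0.0969). It passed with the background set as a term, in limma on unweighted means and without plasma cells 1 (adjusted p of 0.00584, 0.000503 and 0.00736). The other genes that missed the threshold in plasma cells were Sox17, Msx2, Otx1, Lhx1, Dlx2, En2 and Gbx2, named after their values were seen. Sox17 had the second largest difference of all 40, -25.03 points, with an adjusted p of 0.0157, while En2 and Gbx2 were already at 6.55% and 14.6% in naive B cells.

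In plasma cells against plasmablasts none of the 40 genes passed beyond 5 kb, and 0% of all 9210 genes did. The median difference of the 40 genes was -8.56 points, against -6.16 over all genes. This comparison depended on plasma cells 1 and naive B cells 1: without the first 25 of the 40 genes were lower (27.9% of all genes), and without the second 12 (11.0% of all genes). The plasmablast count of 10 moved with single libraries, while the share of all genes stayed between 59.7% and 75.2%. It was 5 without naive B cells 2, 6 without naive B cells 3, plasmablasts 1 or plasmablasts 3, 16 without plasma cells 1 and 20 without naive B cells 1.

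In the authors' deposited table of CpGs lower or higher in plasma cells, 373 CpGs of the 48 genes were listed, 5.06% of those deposited for them, where the list held 10.6% of all CpGs. All 373 were lower, in 40 genes, and 4 lay within 1 kb of a start. In the authors' deposited table for plasmablasts 37 were listed, in 22 genes, all lower, 0.501% of those deposited for the 48 genes, where the list held 1.93% of all CpGs. Of these, 218 and 27 had the coverage used here, and each was also called lower here. The lower calls made here numbered 372 and 156, so many of them, and most in plasmablasts, were not on the authors' lists.

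Lists of comparable genes gave the following levels. A list of 58 relatives from the same families, which includes factors of blood cells such as Pax5, Gata1, Foxp3 and Tbx21, averaged 8.37% ± 1.63 within 1 kb in naive cells and 30.2% ± 1.53 between 1 and 5 kb. A list of 56 other developmental regulators, mostly of nerve and gut, averaged 6.79% ± 1.33 and 12.9% ± 1.84, beside the 7.05% and 11.7% of the 48 genes. Between 5 and 20 kb the relatives were at 43.0% and the developmental regulators at 35.7%, and beyond 20 kb at 86.7% and 76.3%, beside 24.4% and 69.2% at the 48 genes. The 38 Hox genes with tested CpGs, which pattern the body axis, were at 7.91%, 16.6%, 16.4% and 40.9% from the nearest to the farthest distance class. Between 1 and 5 kb, 21 of 40 tested relatives were lower in plasma cells and 8 of 43 tested developmental regulators, compared with 10 of 41 here. Of all genes 68.3% were lower there. The median levels of these tested genes in naive B cells were 26.1%, 8.58% and 8.70%, and 78.8% over all genes. Beyond 5 kb the counts were 36 of 41 and 39 of 48, compared with 32 of 40, where 91.6% of all genes were lower. Pax5 itself was at 1.35% ± 1.31 within 1 kb in naive cells and 0.774% ± 0.692 in plasma cells, and beyond 5 kb it fell from 72.4% ± 1.81 to 49.5% ± 3.68 (-22.70 points, adjusted p = 8.67e-07).

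Genes of the Polycomb machinery were measured in the same libraries. Beyond 5 kb, where 91.6% of all genes were lower in plasma cells, 5 of 5 tested genes of complex 2 were lower, 10 of 13 of complex 1 and 2 of 2 of the demethylases that remove the mark. Ezh2, the catalytic subunit of complex 2, was at 1.27% ± 0.824 within 1 kb in naive B cells. Beyond 5 kb Ezh2 went from 62.4% ± 11.4 to 28.6% ± 5.09 in plasma cells (-32.01 points, adjusted p = 6.17e-05). Kdm2b, which carries a variant complex 1 to CpG islands, went from 84.9% ± 3.91 to 43.9% ± 5.04 between 1 and 5 kb (-40.50 points, adjusted p = 8.08e-07). Both were named as the largest falls of their lists at these distances. Beyond 5 kb the median difference in plasma cells was -14.29 points for complex 2 and -17.62 for complex 1, against -17.25 over all genes. Between 1 and 5 kb 3 of 7 tested complex 1 genes were lower, where 68.3% of all genes were. Their median there was -6.91 points, against -13.40 over all genes.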

How the data were processed

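Reduced representation bisulfite sequencing covered 9 libraries, 3 each of naive B cells, plasmablasts and plasma cells, grouped by GEO's labels. Per the submitters' processing notes, Bismark and Bowtie2 ran against build mm9 of the mouse, with no version given. The authors deposited counts of methylated and unmethylated reads for each CpG and library, with both strands summed, at CpGs covered at least 10 times in each group, per the file headers. The deposited table also gives the methylation level as a fraction, printed here as a percentage computed from the counts, and the nearest gene with the signed distance to its start. The authors' lists of differential CpGs used a false discovery rate of 0.01 and a change of at least 20 points, per the file headers. Reads over all CpGs totalled 16037172 to 29948088 per library, and the median coverage of the tested CpGs of the 48 genes was 24 to 40 reads. Reads amplified by PCR carry no molecular identifiers, so they are not independent molecules. The labels do not tie libraries to animals, so p-values cover the spread between libraries, which may be technical. Replicate libraries correlated at 0.956 to 0.986 over CpG levels, and at most 1.36% of the CpGs of the 48 genes had identical counts in a pair.

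CpGs with at least 10 reads in all 9 libraries were fitted with a quasi-binomial logistic model over all libraries (Python 3.11.15, numpy 2.4.6, scipy 1.17.1), with the dispersion moderated by limma 3.58.1 in R 4.3.3 and not below 1. Dispersions under 0.01 were left out of the moderation. Contrasts used an F test of the deviance, with Benjamini-Hochberg adjustment over all 356320 CpGs. The same model was fitted to reads summed per gene within 1 kb, at 1 to 5 kb and beyond 5 kb of the start, adjusted over all genes of that class. The method was tested on simulated data. Complex 1 genes within 1 kb of their starts are not reported here. Levels of a gene or CpG are means of the libraries' levels. The members, the lists of other genes and the thresholds were chosen with earlier results of these data known. Genes named are, in each distance class, the 6 and 4 called genes with the largest differences in plasma cells and plasmablasts, the 4 highest and 2 lowest levels near the start, the CpGs with the largest falls, and a short set always named (Pax2, Pax6, Six3, Sox2, Gata4, Foxa2, Otx2, Tbx3 and Wt1). Alternatives were a coverage minimum of 5 or 20 reads, the replicate number as a block, the background set (libraries above or below 1.5%) as a term, subtraction of the background, a minimum difference of 10 points, unweighted means of CpG levels, equal weight for each read, and each library left out; 1 dispersion for all CpGs was added after seeing the data.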

Additional observations from a re-analysis of the deposited data

How the results depend on the processing

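Of 1527 values of the named genes under the alternatives, 1430 kept their side of the threshold (1380 with the same sign and 50, not called, with the other), 54 lost the call and 43 gained it, and none that was called changed sign. CpGs of the 48 genes lower in plasma cells (against naive B cells) numbered 372, and 308 to 405 with each library left out. At a coverage minimum of 20 reads, which left 1007 CpGs, 135 were lower in plasma cells, 53 in plasmablasts and 3 in plasma cells against plasmablasts, and 0 were higher in plasmablasts; the gene counts became 4 between 1 and 5 kb in plasma cells, and 6 there and 1 beyond 5 kb in plasma cells against plasmablasts. At a coverage minimum of 5 reads 2 CpGs were higher in plasmablasts, and 6 genes were lower between 1 and 5 kb in plasma cells. With the background set as a term, 188 CpGs were lower in plasma cells and 0 in plasma cells against plasmablasts, and 0 were higher in plasmablasts. The gene counts with this term were 1 in plasmablasts and 0 in plasma cells between 1 and 5 kb, and 20 beyond 5 kb in plasmablasts. This term leaves 1 naive library beside the plasma cells. All plasmablast libraries are in the high set and all plasma cell libraries in the low set. In that contrast, set and stage can be told apart only through the naive libraries. With the background subtracted, 3 CpGs were lower in plasma cells against plasmablasts, 0 were higher in plasmablasts and 6 genes were lower between 1 and 5 kb in plasma cells. A minimum difference of 10 points gave 306 lower and 13 higher CpGs in plasmablasts and 580 lower in plasma cells. Unweighted means gave 2 genes lower within 1 kb and 6 between 1 and 5 kb in plasma cells, and 20 beyond 5 kb in plasmablasts. With 1 dispersion, an alternative chosen after seeing the data, 21 CpGs were lower in plasma cells against plasmablasts. For values that changed, the cause was not tested. The counts in this section stand without the shares of all CpGs or genes called under the same setting. They therefore do not show whether a change was particular to the 48 genes.

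Same-numbered libraries of different groups had correlations of -0.029 to 0.030 in their deviations from the group means, others -0.037 to 0.042. No pairing by number was seen. These correlations do not show whether libraries shared an animal, which the labels do not give. With the replicate number as a block, 5 CpGs instead of 12 and 3 genes within 1 kb instead of 0 were lower in plasma cells against plasmablasts; the other counts stayed within 1.5 times. Under the block the calls of Gbx2 at 1 to 5 kb in plasma cells and Otx2 beyond 5 kb in plasmablasts were lost (adjusted p of 0.0141 and 0.0158), and those of Foxa1 beyond 5 kb in plasmablasts and Pax6 within 1 kb in plasma cells against plasmablasts were gained (0.00923 and 0.00762).

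With each library left out, CpG counts ran from 120 to 173 (lower, plasmablasts), 0 to 6 (higher, plasmablasts) and 0 to 25 (lower, plasma cells against plasmablasts). Counts of lower genes within 1 kb ran from 0 to 3 in plasma cells and 0 to 5 against plasmablasts. Between 1 and 5 kb they ran from 0 to 1 in plasmablasts, 0 to 11 in plasma cells and 0 to 4 against plasmablasts, and beyond 5 kb from 5 to 20, 29 to 36 and 0 to 25.

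Mean differences moved by more than 1 SD in these cases. Between plasma cells and plasmablasts at 1 to 5 kb the difference was -1.77 points with the background subtracted. Against naive B cells 1 alone, plasma cells differed by -0.297, -1.98 and -4.72 points within 1 kb, at 1 to 5 kb and at 5 to 20 kb. With each read weighing the same, plasma cells differed from naive B cells by -9.26 points at 5 to 20 kb and -19.3 points beyond 20 kb, and from plasmablasts by -7.38 and -9.79 points.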
